A study of Oryza sativa Japonica Group with 10 samples.

Results

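The MYB transcription factor family of rice was followed through the root tip and the mature root. Members were the rows of the deposited count table whose description contained MYB in any case, leaving out descriptions with proto-oncogene binding, transposon or homeobox. The rule found 197 of 33486 rows, and no measured value entered it. The descriptions fell into 14 wordings once the endings putative and expressed were removed. The commonest were MYB family transcription factor (138 rows), myb-like DNA-binding domain containing protein (31 rows) and Myb transcription factor (10 rows). Most members therefore carry a family name and no gene name of their own, and none of their locus identifiers matched the RefSeq gene table of rice, so they are given by identifier. The locus names place members on all 12 chromosomes, with 39 on chromosome 1 and 27 on chromosome 2.

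MYB proteins bind DNA through imperfect repeats of a helix-turn-helix fold, each held by regularly spaced tryptophans. In plants the class with a pair of repeats is greatly expanded and is known for control of phenylpropanoid and flavonoid synthesis, secondary wall formation, suberin deposition and epidermal cell fate, the last together with basic helix-loop-helix partners. Members with a single repeat include circadian clock proteins, phosphate starvation regulators and telomere-binding proteins, and a class with more repeats acts on genes of mitosis.

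Roots of Oryza sativa cultivar Nipponbare, an untransformed japonica reference cultivar, were sampled in 4 groups. These were root tip after 6 days (3 libraries) and after 2 days (3 libraries) in Hoagland nutrient solution, and mature root after 6 days (2 libraries) and after 2 days (2 libraries). Seedlings of every group had germinated for 5 days in the dark and were transferred at an age of 12 days, with the whole plant in the light. The tip sample held meristem and elongation zone, the mature root sample all the rest of the root system, and each library pooled 6 plants. The day of sampling therefore also sets the age of the plants and the sampling occasion, and these cannot be told apart.

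Library totals ran from 1428128 to 2560074 counts in tips on day 6 and from 986907 to 2001408 in those of day 2, against 2648858 to 3286439 in mature root on day 6 and 2161392 to 2776544 on day 2. Levels are given as CPM, the counts scaled to library size with trimmed mean of M-values factors, and 3 counts in a library stood for 0.809 to 2.69 CPM. Replicates differed by more than sampling noise, at 14.7 to 31.2 chi-square units per degree of freedom over the 8 replicate pairs. A wall differentiation list (fatty acyl reductase, DUF588 and laccase descriptions) was read beside the tissue labels. Of its 41 tested rows, 12 were called lower in tips (29.3%, against 9.02% of all tested rows) and 0 higher. The list was chosen with earlier results of these data known, so it is no independent check of the labels. Its descriptions also enter the suberin and phenylpropanoid lists below. Of 88 tested rows for cyclins, core histones and DNA replication, 3 were called higher and 5 lower in tips (3.41% and 5.68%, against 3.18% and 9.02% of all tested rows), so this list did not mark the tip by its calls. Its summed level was 14000 to 14800 CPM in tips on day 6 and 8800 to 13600 CPM on day 2, against 7460 to 9540 CPM and 9000 to 12200 CPM in mature root on these days. A list of 28 green tissue rows (chlorophyll-binding proteins, Rubisco small subunit, photosystem I reaction centre) summed to 80.1 to 196 CPM in tips on day 6 and 98.2 to 117 CPM on day 2. In mature root it summed to 3160 to 7570 CPM on day 6 and 2620 to 4510 CPM on day 2, and 23 of its 24 tested rows (95.8%) were called lower in tips. The part of green tissue transcripts in the MYB differences between tip and mature root was not tested.

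Together the MYB rows took a smaller share of the counts in tips. In tips it was 0.553% ± 0.21 on day 6 and 0.558% ± 0.0636 on day 2 (SD, n = 3 each). In mature root it was 1.2% ± 0.0769 on day 6 and 1.09% ± 0.191 on day 2 (SD, n = 2 each). All 6 tip libraries, at 0.31% to 0.676%, lay below all 4 mature root libraries, at 0.959% to 1.26%. A single row, LOC_Os01g74410-ext, took a large part of this. Without it the share was 0.385% ± 0.106 and 0.373% ± 0.0407 in tips on day 6 and day 2 (SD, n = 3 each), and 0.61% ± 0.0347 and 0.594% ± 0.0171 in mature root on these days (SD, n = 2 each). In bulk tissue, fewer cells of a type and less RNA per cell cannot be told apart.

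**Figure D1:**
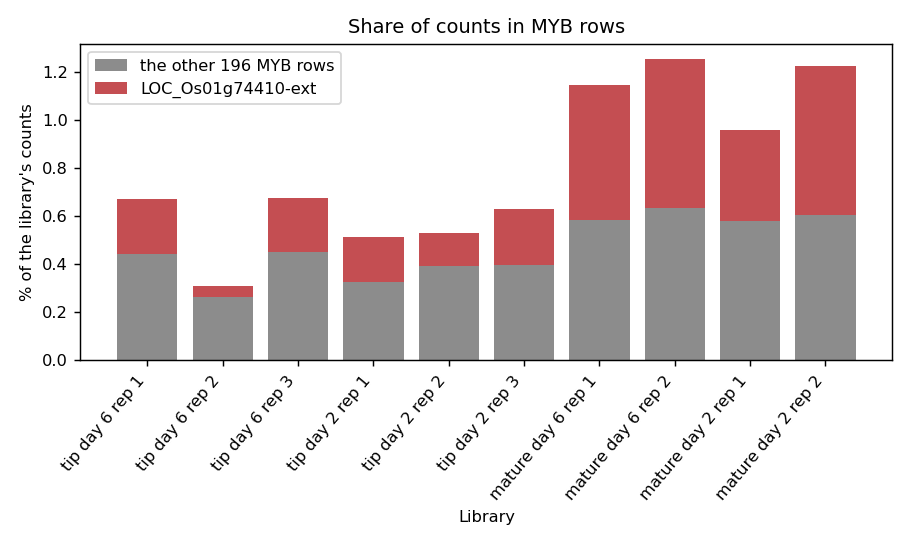
Share of each library's counts in MYB rows, as % (y axis), for the 10 libraries (x axis), split into LOC_Os01g74410-ext (red) and the other 196 rows (grey). The 6 tip bars reach 0.31% to 0.676% and the 4 mature root bars 0.959% to 1.26%.

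Of the 197 members, 119 had enough counts to be tested and 78 did not. The untested members had a median of 10 counts over all libraries and at most 92, reached by LOC_Os07g49530. No member was without a count, 38 had 1 to 9 counts in all, and 27 had 0 counts in every tip library, against 6 with 0 in every mature root library. The summed totals were close, 10749515 counts for tip and 10873233 for mature root. Among all 33486 rows, 9.85% had 0 counts in every tip library and 8.06% in every mature root library, against 13.7% and 3.05% of MYB rows. Among tested members, the mean level per kb of summed exon length ran from 0.866 to 1170 CPM per kb with a median of 7.77 CPM per kb, and all 19234 tested rows had a median of 7.96 CPM per kb. LOC_Os01g74410-ext had the highest of these levels, rank 20 among all tested rows.

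The comparison of root tip with mature root over both days asked which MYB genes differ between the tip and the rest of the root system. In tips 17 members were called lower and 4 higher by edgeR's quasi-likelihood test, with calls made at 0.05 on the Benjamini-Hochberg adjusted p of all 19234 tested rows. The lower calls were 14.3% of the tested members, against 9.02% of all tested rows. The higher calls were 3.36%, against 3.18% of all tested rows. The median log2 fold change, root tip over mature root, was -0.30 over the tested members and 0.05 over all tested rows, and 63% of the members lay below 0, against 48.3% of all rows. Members with no overlap between the 6 tip and the 4 mature root libraries were 17 lower and 3 higher (14.3% and 2.52%, against 7.34% and 3.87% of all tested rows). Of the called members, 11 of the 17 lower and 2 of the 4 higher were without overlap. The share without overlap among all called rows is not given, so these counts describe the members alone. The number of calls rested on single libraries. The lower calls were 7 without replicate 2 of day 2 mature root (5.26% of members tested then, against 4.18% of all rows) or without replicate 1 of day 6 mature root (5.22%, against 3.44%). The higher calls were 2 without replicate 2 of day 2 tips or replicate 3 of day 6 tips, 1 without replicate 1 of day 2 mature root, and 0 without replicate 2 of day 2 mature root or without replicate 1 or 2 of the day 6 mature root. Without the filter on low counts 30 members were called lower and 7 higher among all 197 (15.2% and 3.55%, against 8.18% and 3.95% of all 33486 rows).

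**Figure D2:**
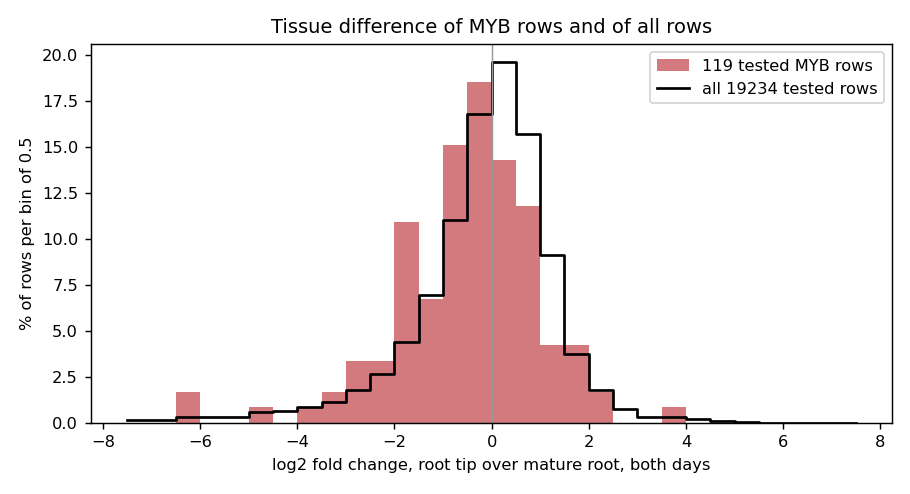
Distribution of the log2 fold change of root tip over mature root, both days (x axis, values from -7.5 to 7.5), as % of rows per bin of 0.5 (y axis), for the 119 tested MYB rows (red bars) and all 19234 tested rows (black line). The members' median is -0.30 and that of all rows 0.05.

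A set of 4 members kept the lower call in tips with each of the 10 libraries left out in turn and under every other alternative run. LOC_Os12g37970-ext, a MYB family transcription factor of 6 exons and 3335 bases of summed exon length, had the smallest p. It stood at 7.7, 15.2 and 27.8 CPM in tips on day 6 and 48.5, 84.3 and 89.8 CPM on day 2, against 325 and 336 CPM in mature root on day 6 and 379 and 442 CPM on day 2. Every tip library lay below every mature root library, and the tip libraries of day 6 were the lowest of all. The log2 fold change was -3.37 (SE 0.38, Benjamini-Hochberg adjusted p = 0.000393 in edgeR's quasi-likelihood test), and the highest adjusted p over the alternatives was 0.00277.

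LOC_Os01g09590, described as a myb-like DNA-binding domain containing protein, had 21.6, 16.4 and 14.8 CPM in tips on day 6 and 35, 36.6 and 36.4 CPM on day 2, against 79.9 and 96.9 CPM in mature root on day 6 and 196 and 140 CPM on day 2. Tip replicates of a day were close together, and the tissues did not overlap. Its log2 fold change was -2.27 (SE 0.34, adjusted p = 0.00156 in edgeR's quasi-likelihood test). LOC_Os11g47460-ext, a MYB family transcription factor of 7 exons, had 88.5, 141 and 111 CPM in tips on day 6 and 60.2, 149 and 112 CPM on day 2, against 451 and 470 CPM in mature root on day 6 and 365 and 594 CPM on day 2. It was again lower in all 6 tip libraries, with a log2 fold change of -2.09 (SE 0.33, adjusted p = 0.00214 in the same test). LOC_Os08g43550, of 3 exons, was more variable in both tissues. It had 51.6, 35.2 and 196 CPM in tips on day 6 and 119, 58.6 and 85.6 CPM on day 2, against 553 and 590 CPM in mature root on day 6 and 505 and 1110 CPM on day 2. Its tip libraries still all lay below its mature root libraries, at a log2 fold change of -2.9 (SE 0.47, adjusted p = 0.00265).

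These 4 members were among the more abundant MYB rows. Per kb of summed exon length, LOC_Os08g43550 averaged 38.5 CPM per kb in tips and 292 in mature root, LOC_Os11g47460-ext 30.2 and 128, LOC_Os12g37970-ext 13.7 and 111, and LOC_Os01g09590 8.18 and 39.1. Over the 10 libraries, the members whose log2 CPM was most like that of LOC_Os12g37970-ext were LOC_Os01g09590 (Pearson r = 0.919), LOC_Os03g22560 (r = 0.9) and LOC_Os09g01960 (r = 0.883). The libraries share tissue and depth differences, and these values are a description.

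The most abundant member, LOC_Os01g74410-ext, was lower in tips by a smaller factor. It had 2540, 469 and 2330 CPM in tips on day 6 and 1660, 1450 and 2480 CPM on day 2, against 6640 and 5510 CPM in mature root on day 6 and 3320 and 6510 CPM on day 2. No tip library reached the mature root libraries, and replicate 2 of day 6 tips was far below the other tip libraries. The log2 fold change was -1.59 (SE 0.38, adjusted p = 0.0178 in edgeR's test), and per kb it averaged 585 CPM in tips and 1760 CPM in mature root. The call was lost without replicate 2 of day 2 mature root (adjusted p = 0.103) or replicate 1 of day 6 mature root (adjusted p = 0.075). The other members of highest mean CPM were LOC_Os03g55590 and LOC_Os04g56990-ext, beside LOC_Os08g43550 and LOC_Os11g47460-ext. LOC_Os03g55590 had 170, 130 and 270 CPM in tips on day 6 and 107, 247 and 350 CPM on day 2, against 374 and 402 CPM in mature root on day 6 and 435 and 462 CPM on day 2. Its tissues did not overlap, and it did not pass (log2 fold change -0.98, SE 0.35, edgeR adjusted p = 0.0865). Without replicate 3 of day 2 tips it did, at an adjusted p = 0.0471. LOC_Os04g56990-ext, a myb-like DNA-binding domain row, had 217 ± 130 CPM in tips and 353 ± 73.1 CPM in mature root (n = 6 and 4, SD), and the tissues overlapped (log2 fold change -0.69, SE 0.43, edgeR adjusted p = 0.307).

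Another group of members was called lower in tips with moderate levels in mature root. LOC_Os09g26170 had 33.9, 6.25 and 9.88 CPM in tips on day 6 and 18, 8.8 and 12.8 CPM on day 2, against 85.8 and 156 CPM in mature root on day 6 and 29.2 and 116 CPM on day 2. A tip library of day 6 exceeded the lowest mature root library, and the log2 fold change was -2.67 (SE 0.56, adjusted p = 0.00985 by edgeR). LOC_Os08g33750-ext, with a myb-like DNA-binding domain, had 39.3, 35.6 and 36.4 CPM in tips on day 6 and 46.7, 45.4 and 52.9 CPM on day 2, against 446 and 129 CPM in mature root on day 6 and 48.6 and 93.9 CPM on day 2. Its tip values were nearly constant, and replicate 1 of day 6 mature root stood well above the rest. The log2 fold change was -1.76 (SE 0.39, edgeR adjusted p = 0.014). Without replicate 2 of day 2 mature root the adjusted p was 0.0659 for LOC_Os09g26170 and 0.0785 for LOC_Os08g33750-ext, and without replicate 1 of day 6 mature root it was 0.128 for LOC_Os08g33750-ext.

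Low in tips, at 5.88 CPM or less, were LOC_Os03g20900, LOC_Os05g10690 and LOC_Os02g04640. LOC_Os03g20900, a row described as Myb transcription factor, had 0.77, 3.13 and 2.69 CPM in tips on day 6 and 0, 1.47 and 1.07 CPM on day 2, against 9.38 and 21.9 CPM in mature root on day 6 and 8.89 and 12.6 CPM on day 2. LOC_Os05g10690, of the same description, had 0.77, 0.391 and 3.59 CPM in tips on day 6 and 1.8, 0.733 and 5.88 CPM on day 2, against 16.5 and 20 CPM in mature root on day 6 and 10.8 and 24.2 CPM on day 2. LOC_Os02g04640, a Myb-like DNA-binding domain row, had 3.08, 0 and 0.898 CPM in tips on day 6 and 0.898, 1.47 and 2.14 CPM on day 2, against 54.9 and 7.01 CPM in mature root on day 6 and 15.9 and 4.36 CPM on day 2. In each of them the tissues did not overlap, although several tip values stood for only a few counts. Their tip counts alone would not have passed the filter on low counts. The log2 fold changes were -3.12 (SE 0.62), -2.99 (SE 0.66) and -3.68 (SE 0.82), in the order named, with edgeR adjusted p of 0.00796, 0.0128 and 0.0131. The calls of LOC_Os03g20900 without replicate 2 of day 6 mature root (adjusted p = 0.0516), of LOC_Os05g10690 without replicate 2 of day 2 mature root (adjusted p = 0.0685) and of LOC_Os02g04640 without replicate 1 of day 2 mature root (adjusted p = 0.0707) or replicate 1 of day 6 mature root (adjusted p = 0.136) were lost. Without single tip libraries some fold changes were larger. That of LOC_Os05g10690 was -3.62 without replicate 3 of day 2 tips and -3.74 without replicate 3 of day 6 tips, and that of LOC_Os02g04640 was -4.33 without replicate 1 of day 6 tips.

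LOC_Os05g40960 and LOC_Os09g23620 were close to absent from tips. Both passed the filter on low counts through mature root alone, so rows of this pattern could only be called lower in tips. LOC_Os05g40960, a Myb transcription factor row, had 0 counts over all 6 tip libraries, against 47 over the mature root libraries. With a floor of 3 counts over the tip libraries it was at least 14.6-fold lower in tips. Its mature root levels were 0.893 and 2.7 CPM on day 6 and 4.45 and 10.2 CPM on day 2. LOC_Os09g23620, a MYB family transcription factor row of 5 exons, had 3 counts in tips, all in replicate 3 of day 6 tips, against 143 in mature root. Mature root stood 44.6 times above tips (95% Clopper-Pearson interval of the counts 14.9 to 219). The interval is of counts summed over libraries and does not cover the spread between replicates. Mature root libraries of this member were uneven, with 30.8 and 8.63 CPM on day 6 and 0.635 and 19.4 CPM on day 2. The lowest of them lay below the tip library with counts, at 1.35 CPM, so the tissues overlapped. The edgeR adjusted p were 0.0182 for LOC_Os05g40960 and 0.0127 for LOC_Os09g23620. The call of LOC_Os05g40960 was lost without any 1 of the mature root libraries, at an adjusted p of 0.0595 and 0.107 without replicate 1 and replicate 2 of day 2, and of 0.0634 and 0.104 without replicate 1 and replicate 2 of day 6. That of LOC_Os09g23620 was lost without replicate 2 of day 2 mature root (adjusted p = 0.121) or replicate 1 of day 6 (adjusted p = 0.0681).

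The remaining 5 members called lower were LOC_Os01g52410, LOC_Os05g51160, LOC_Os09g01960, LOC_Os06g24070 and LOC_Os01g09640, which fell outside the rule for named genes and are given because they complete the calls. Their edgeR adjusted p ran from 0.0188 for LOC_Os01g52410 to 0.0444 for LOC_Os01g09640. LOC_Os05g51160 averaged 12.8 ± 7.07 CPM in tips and 50.4 ± 19 CPM in mature root (n = 6 and 4, SD). Each of these calls was lost without replicate 2 of day 2 mature root (adjusted p = 0.0587, 0.111, 0.153, 0.0888 and 0.149, in the order named) or without replicate 1 of day 6 mature root (0.162, 0.0848, 0.14, 0.0944 and 0.0955). Leaving out replicate 1 of day 2 mature root also ended the calls of LOC_Os01g52410, LOC_Os05g51160, LOC_Os06g24070 and LOC_Os01g09640 (0.0534, 0.0537, 0.135 and 0.0786). Leaving out replicate 2 of day 6 mature root ended those of LOC_Os05g51160, LOC_Os09g01960, LOC_Os06g24070 and LOC_Os01g09640 (0.084, 0.0641, 0.123 and 0.149). Of the tip libraries, replicate 1 of day 2 ended the calls of LOC_Os05g51160 (0.0515) and LOC_Os06g24070 (0.0506). Replicates 2 and 3 of day 2 and replicate 2 of day 6 did so for LOC_Os09g01960 (0.067, 0.055 and 0.0539), LOC_Os06g24070 (0.056, 0.0553 and 0.051) and LOC_Os01g09640 (0.0834, 0.0847 and 0.0814), and replicate 1 of day 6 for LOC_Os01g09640 (0.0599). Scaling by library totals also ended the call of LOC_Os01g09640 (adjusted p = 0.0515), and testing without the filter on low counts that of LOC_Os09g01960 (adjusted p = 0.0619). With all libraries thinned to the lowest total, a setting chosen after seeing the data, LOC_Os05g51160 and LOC_Os09g01960 were not called (adjusted p = 0.0526 and 0.0826). In LOC_Os01g52410, replicate 1 of day 6 mature root held 61.9% of the CPM summed over all libraries. The log2 fold change of LOC_Os09g01960 was -1.39 (SE 0.38). That of LOC_Os06g24070 was -6.75 without replicate 1 of day 6 tips and -4.36 without replicate 1 of day 2 mature root.

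The members called higher in tips were LOC_Os02g14490, LOC_Os12g38400, LOC_Os06g35140 and LOC_Os02g09480. LOC_Os02g14490 had 31.6, 25.4 and 56.1 CPM in tips on day 6 and 30.5, 33.7 and 555 CPM on day 2, against 4.02 and 9.98 CPM in mature root on day 6 and 4.13 and 8.23 CPM on day 2. The tissues did not overlap, but replicate 3 of day 2 tips alone held 73.1% of the summed CPM of the 10 libraries. Its log2 fold change was 3.73 (SE 0.88, edgeR adjusted p = 0.017), and 2.37 without that library (adjusted p = 0.0167). LOC_Os12g38400 had 58.5, 41.4 and 57 CPM in tips on day 6 and 97.9, 68.9 and 26.7 CPM on day 2, against 15.2 and 16.5 CPM in mature root on day 6 and 19.7 and 6.29 CPM on day 2. No library of mature root reached a tip library, and no single library stood apart (log2 fold change 2, SE 0.5, edgeR adjusted p = 0.0219). The 3 closest patterns to that of LOC_Os02g14490 were LOC_Os01g40670 (Pearson r = 0.911 of log2 CPM over the 10 libraries), LOC_Os02g46940 (r = 0.665) and LOC_Os12g39640-ext (r = 0.66).

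LOC_Os06g35140, of 8 exons, had 97.8, 55.1 and 138 CPM in tips on day 6 and 90.7, 272 and 87.7 CPM on day 2, against 67 and 31.8 CPM in mature root on day 6 and 31.1 and 18.4 CPM on day 2. LOC_Os02g09480, a myb-like DNA-binding domain row with a single exon, had 47, 48.5 and 53 CPM in tips on day 6 and 23.3, 144 and 34.2 CPM on day 2, against 17 and 30.5 CPM in mature root on day 6 and 9.53 and 8.71 CPM on day 2. In both, the highest mature root library exceeded the lowest tip library, and replicate 2 of day 2 tips was the highest of all. Their log2 fold changes were 1.78 (SE 0.49, edgeR adjusted p = 0.0337) and 1.96 (SE 0.55, edgeR adjusted p = 0.0359). All 4 higher calls depended on mature root. Without replicate 2 of day 2 mature root the adjusted p were 0.0804, 0.102, 0.147 and 0.139 for LOC_Os02g14490, LOC_Os12g38400, LOC_Os06g35140 and LOC_Os02g09480. Without replicate 1 of day 6 mature root they were 0.112, 0.109, 0.0816 and 0.168, and without replicate 2 of day 6 mature root they were 0.062, 0.0847, 0.142 and 0.0872. Without replicate 1 of day 2 mature root they were 0.0959 for LOC_Os02g14490, 0.0812 for LOC_Os06g35140 and 0.121 for LOC_Os02g09480, while LOC_Os12g38400 kept its call. LOC_Os06g35140 also lost its call without replicate 2 of day 2 tips (adjusted p = 0.0677) or replicate 3 of day 6 tips (0.0604), and LOC_Os02g09480 without these (0.0616 and 0.0529) or replicate 2 of day 6 tips (0.0557). With thinned libraries LOC_Os02g09480 was not called (adjusted p = 0.0524).

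**Figure D3:**
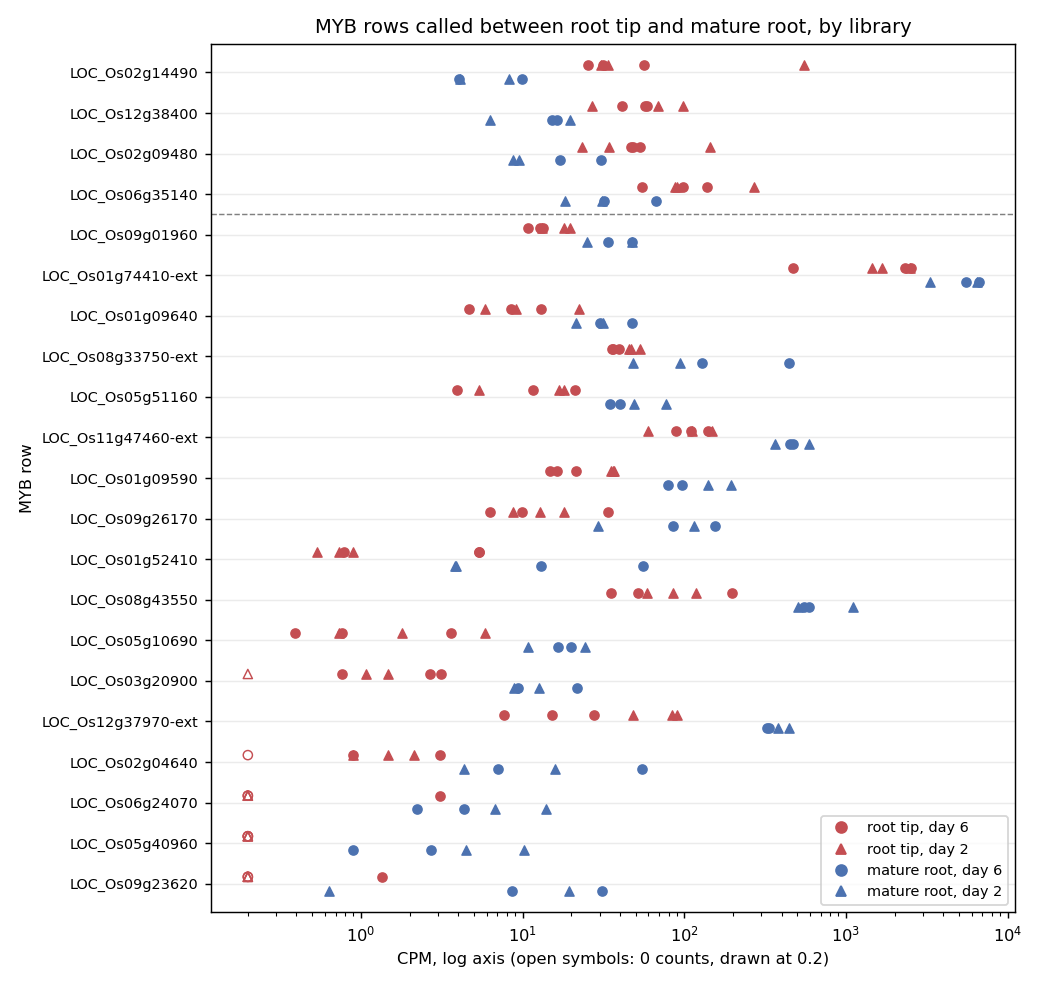
Level of the 21 members called between root tip and mature root, in CPM on a log axis (x axis), by member (y axis, ordered by log2 fold change). Each symbol is a library, red for root tip and blue for mature root, circles for day 6 and triangles for day 2, and open symbols mark 0 counts. The 4 members above the dashed line were called higher in tips and the 17 below it lower, and in 13 of the 21 the tissues do not overlap.

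By description, 7 of 77 tested MYB family transcription factor rows were called lower in tips and 3 higher (9.09% and 3.9%), close to the 9.02% and 3.18% of all tested rows, with a median log2 fold change of -0.26. Of 9 tested rows described as Myb transcription factor, 5 were lower (55.6%) and 0 higher, with a median of -1.63. None of these 5 was among the 4 members that kept the call with every single library left out. They include LOC_Os05g40960, LOC_Os05g10690 and LOC_Os03g20900, whose tip counts alone would not have passed the filter on low counts. The myb-like DNA-binding domain rows had 5 of 20 lower and 1 higher (25% and 5%) and a median of -0.7. In gene structure, members called lower had a median of 5 exons (1 to 9), members called higher a median of 6 (1 to 8) and the 98 not called a median of 5 (1 to 23). Of the members not called, 71 had a log2 fold change within 1 of 0. The median SE was 0.53 for those not called and 0.50 for those called. The called log2 fold change nearest to 0 was -1.39, so that most changes within 1 of 0 were not detectable with these libraries. The 3 nearest to the threshold were LOC_Os01g65370, LOC_Os02g45670-ext and LOC_Os03g21240, at an edgeR adjusted p of 0.055, 0.058 and 0.0607.

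Tested members whose description carries a gene name of its own did not pass between the tissues. The 3 single myb histones, a class known in maize for binding telomeric DNA, had log2 fold changes of -0.09 (SE 0.6) for LOC_Os12g41920, 0.3 (SE 0.52) for LOC_Os01g51154 and 0.73 (SE 0.41) for LOC_Os01g40670, with edgeR adjusted p of 0.942, 0.75 and 0.259. LOC_Os12g41920 had 45.4, 21.1 and 102 CPM in tips on day 6 and 43.1, 14.7 and 34.2 CPM on day 2, against 177 and 24.5 CPM in mature root on day 6 and 16.8 and 21.8 CPM on day 2. LOC_Os01g40670 had 30.2 ± 12.2 CPM in tips and 18.2 ± 1.19 CPM in mature root (n = 6 and 4, SD), with no overlap, and still missed the threshold. LOC_Os06g43090-ext, described as TaMYB1, had 62.2 ± 26.1 CPM in tips and 58.6 ± 28 CPM in mature root (n = 6 and 4, SD). For LOC_Os10g33810, described as myb-related protein Myb4, the levels were 28.5 ± 8.99 and 17.7 ± 4.21 CPM in tip and mature root (n = 6 and 4, SD). LOC_Os04g58020, described as MYB_Al protein, had 20.6 ± 4.22 CPM in tips and 15.9 ± 4.03 CPM in mature root, and LOC_Os07g25150, described as myb-related protein 306, had 21.5 ± 8.18 and 29.2 ± 13.6 CPM (n = 6 and 4, SD). LOC_Os07g44090-ext, described as myb-related protein Hv33, had 12.6 ± 8.77 CPM in tips and 9.64 ± 3.06 CPM in mature root. The tissues overlapped in each of these last 5 members. The adjusted p ran from 0.269 to 0.927 by edgeR. The single row named after DIVARICATA, a regulator of flower asymmetry in Antirrhinum, had too few counts to be tested. This row, LOC_Os03g14810-ext, had 1 count in tips and 32 in mature root. Its levels were 0 to 0.449 CPM in tips and 2.22 to 3.57 CPM in mature root, without overlap.

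Taken day by day, more members passed on day 6 than on day 2, and the difference between the days was itself tested. On day 6, 11 members were called lower in tips and 0 higher by edgeR (9.24% and 0%, against 5.75% and 1.33% of all tested rows). On day 2, 4 were called lower and 0 higher (3.36% and 0%, against 1.07% and 0.0832% of all tested rows). At an unadjusted p under 0.05, 33 members were lower and 5 higher on day 6 (27.7% and 4.2%, against 15.2% and 10.3% of all tested rows). On day 2 these were 14 lower and 4 higher (11.8% and 3.36%, against 11% and 5.66%). DESeq2 also called 3 members higher in tips on day 2, LOC_Os12g38400, LOC_Os06g35140 and LOC_Os02g09480 (2.52%, against 1.23% of all tested rows; DESeq2 adjusted p = 0.0239, 0.00884 and 0.00835), and none on day 6. The 4 called on day 2 were LOC_Os12g37970-ext, LOC_Os01g09590, LOC_Os11g47460-ext and LOC_Os08g43550, all of which were also called on day 6. The log2 fold change of LOC_Os12g37970-ext was -4.27 on day 6 and -2.46 on day 2, that of LOC_Os08g43550 -2.6 and -3.21, that of LOC_Os01g09590 -2.33 and -2.22, and that of LOC_Os11g47460-ext -2.02 and -2.16. When the contrast of day 6 was tested against that of day 2, no member passed by edgeR or DESeq2. Of all tested rows 0% passed by edgeR and 0.489% by DESeq2. By edgeR 13 members had an unadjusted p under 0.05 (10.9%, against 9.47% of all tested rows). Within days the calls rested on single libraries. With 1 tip library left out the day 2 calls were 0 to 4 and the day 6 calls 1 to 11. Without replicate 2 of day 6 tips the day 6 calls were 0.84% of tested members, against 2.01% of all tested rows. In a fit of only the compared groups the calls were 0 on day 2 (0%, against 0.0237% of all tested rows) and 3 on day 6 (2.65%, against 3.33%). They were 0 on day 2 without any 1 of the tip libraries of that day, replicate 2 of day 2 mature root or replicate 1 or 2 of day 6 mature root, and 1 without replicate 1 of day 2 mature root or replicate 2 of day 6 tips. On day 6 they were 1 without replicate 2 of day 6 tips or replicate 1 of day 6 mature root, 5 without replicate 1 of day 2 mature root, and 6 without replicate 3 of day 6 tips, replicate 2 of day 2 mature root or replicate 2 of day 6 mature root.

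**Figure D4:**
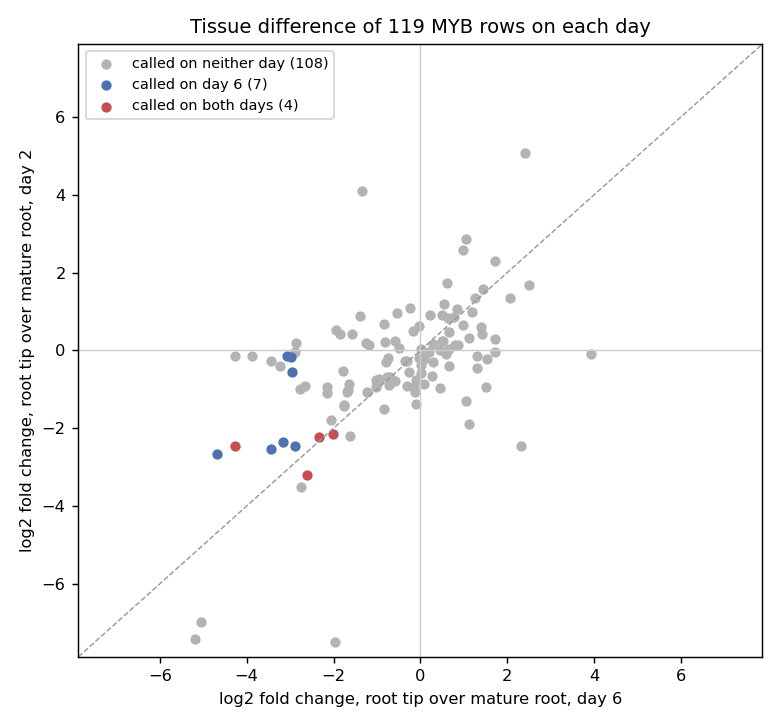
Log2 fold change of root tip over mature root on day 6 (x axis) and on day 2 (y axis) for the 119 tested members, each a point; the dashed line marks equal values. The 4 members called on both days (red) and the 7 called on day 6 alone (blue) all lie below 0 on both axes, and 108 were called on neither day (grey).

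Of the 11 members called on day 6, 9 were also called over both days. The other two were LOC_Os01g65370 and LOC_Os02g41510-ext. LOC_Os01g65370 had 51.6, 17.6 and 31.4 CPM in tips on day 6 and 25.1, 23.5 and 23 CPM on day 2, against 482 and 83.1 CPM in mature root on day 6 and 36.8 and 16 CPM on day 2. LOC_Os02g41510-ext had 34.6, 5.47 and 7.18 CPM in tips on day 6 and 6.29, 8.06 and 7.49 CPM on day 2, against 96.9 and 148 CPM in mature root on day 6 and 9.21 and 7.26 CPM on day 2. Both were high in mature root of day 6 and low in the other groups. On day 6 the log2 fold changes were -3.08 and -2.99 (edgeR adjusted p = 0.0277 and 0.0329), and on day 2 they were -0.15 and -0.18 (edgeR adjusted p = 0.941 and 0.935). The differences between days, -2.93 (SE 1.04) and -2.81 (SE 1.08), did not pass (edgeR adjusted p = 0.513 for each). Nor did those of LOC_Os02g07770-ext, at 4.78 (SE 1.68), and LOC_Os08g33750-ext, at -2.4 (SE 0.81), with the same edgeR adjusted p of 0.513. LOC_Os01g65370 lost its day 6 call without replicate 2 or 3 of day 6 tips or replicate 1 of day 6 mature root (adjusted p up to 0.471). LOC_Os02g41510-ext lost it without these or any other mature root library (adjusted p up to 0.143).

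The comparison of day 6 with day 2 within each tissue called no member. By edgeR's quasi-likelihood test 0 of 119 members and 0 of 19234 rows passed in either tissue (0% of all tested rows). At an unadjusted p under 0.05, 6 members were higher and 3 lower on day 6 in tips (5.04% and 2.52%, against 5.56% and 5.17% of all tested rows), and 9 were higher and 0 lower in mature root (7.56% and 0%, against 6.04% and 4.73%). The median log2 fold change of day 6 over day 2 was -0.03 in tips and 0.16 in mature root. DESeq2 called 1 member in tips and 3 in mature root (0.84% and 2.52%, against 0.676% and 1.95% of all tested rows).

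In tips the member called by DESeq2 was LOC_Os12g37970-ext, at a log2 fold change of -2.13 (DESeq2 adjusted p = 0.0123), whose values are given above and whose tip libraries of day 6 all lay below those of day 2. In edgeR's test it stood at -2.12 (SE 0.5, adjusted p = 0.425). LOC_Os04g43680 had 227, 74.7 and 175 CPM in tips on day 6 and 67.3, 36.6 and 36.4 CPM on day 2, with no overlap. Its mature root levels were 402 and 239 CPM on day 6 and 96.8 and 68.7 CPM on day 2, so that both tissues had the higher values on day 6, but its log2 fold change in tips of 1.77 (SE 0.51) did not pass (edgeR adjusted p = 0.425). LOC_Os12g07640 had 10.8, 46.9 and 23.8 CPM in tips on day 6 and 3.59, 3.66 and 8.02 CPM on day 2, again without overlap and without a call (log2 fold change 2.38, SE 0.75, edgeR adjusted p = 0.425). LOC_Os02g07770-ext had 33.1, 6.25 and 1.8 CPM in tips on day 6 and 0.898, 1.47 and 0.535 CPM on day 2, with replicate 1 of day 6 far above the others (log2 fold change 3.75, SE 1.17, edgeR adjusted p = 0.425). In the direction of lower values on day 6, LOC_Os01g09590 had a log2 fold change of -1.04 (SE 0.44, edgeR adjusted p = 0.448) in tips, without overlap. LOC_Os02g14490 had -2.45 (SE 0.97, edgeR adjusted p = 0.434), which turned to 0.24 without replicate 3 of day 2 tips.

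In mature root DESeq2 called LOC_Os01g19330, LOC_Os02g41510-ext and LOC_Os01g65370 as higher on day 6, at adjusted p of 0.00592, 0.00135 and 0.00557. LOC_Os01g19330, a row of a single exon, had 14.7 and 16.5 CPM in mature root on day 6 and 0 counts in both libraries of day 2. Its 94 counts of day 6 made it at least 27.5-fold higher on day 6 with a floor of 3 counts over the libraries of day 2. Tips had 10.8, 0.782 and 7.18 CPM on day 6 and 1.8, 0 and 1.07 CPM on day 2, so that the tip ranges overlapped. By edgeR the adjusted p was 0.245 for LOC_Os01g19330 and LOC_Os02g41510-ext and 0.275 for LOC_Os01g65370. Of members lower on day 6, LOC_Os02g47744-ext had 4.91 and 10.3 CPM in mature root on day 6 and 14.3 and 23.2 CPM on day 2 (log2 fold change -1.28, SE 0.64, edgeR adjusted p = 0.501). LOC_Os02g42870 had 0.893 and 0.809 CPM on day 6 and 18.4 and 1.94 CPM on day 2 (edgeR adjusted p = 0.558), with the high value in replicate 1 of day 2. For LOC_Os01g09590 the log2 fold change in mature root was -0.92 (SE 0.52, edgeR adjusted p = 0.567).

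**Figure D5:**
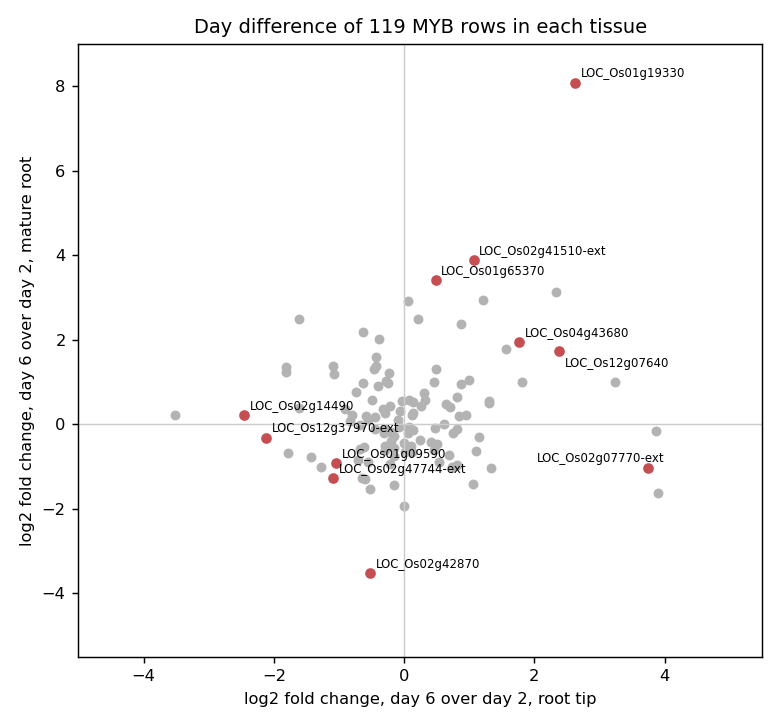
Log2 fold change of day 6 over day 2 in root tip (x axis) and in mature root (y axis) for the 119 tested members, each a point; the members named for a day difference are red and labelled. No point was called by edgeR's test in either tissue, and LOC_Os01g19330, which had 0 counts in mature root on day 2 and whose plotted value depends on the prior count, lies highest.

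Genes of pathways that plant MYB proteins are known to control were counted between root tip and mature root over both days, in lists defined by description and read beside the same background of 9.02% lower and 3.18% higher. Of 36 tested phenylpropanoid and lignin rows, which supply lignin and other wall phenolics, 11 were called lower in tips and 0 higher, at a median log2 fold change of -1.34. Flavonoid rows had 7 of 37 lower and 1 higher (median -0.47), and suberin and Casparian strip rows 16 of 37 lower and 0 higher (median -1.1). Of 9 CESA cellulose synthases 1 was lower, of 12 phosphate transport and starvation rows 2, of 18 rows with clock or CCT descriptions 7, and none of these lists had a higher call (medians -0.7, -1.32 and -0.82). Cyclins, some of which are targets of MYB proteins with more repeats, had 3 of 45 higher and 4 lower (median 0.44).

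The leading gene of a list was the row of smallest p in the direction with more calls, so all those given were lower in tips. They do not show the range of a list, and the 3 cyclins and 1 flavonoid row called higher are not among them. For cyclins this direction was opposite to the list's median of 0.44. The phenylalanine ammonia-lyase LOC_Os05g35290, whose enzyme opens the phenylpropanoid pathway, had 22.5 ± 10.8 CPM in tips and 256 ± 264 CPM in mature root (n = 6 and 4, SD; edgeR adjusted p = 0.00243). LOC_Os08g44360, described as male sterility protein 2, a fatty acyl reductase family, had 2.86 ± 2 CPM in tips and 285 ± 99.1 CPM in mature root (edgeR adjusted p = 8.54e-05). The chalcone synthase LOC_Os11g32650-ext, of the first step of flavonoid synthesis, had 1 count in tips, against 1398 in mature root, which stood 1310 times above tips (95% Clopper-Pearson interval of the counts 234 to 51700). Its mature root libraries ran from 1.94 to 304 CPM. The cellulose synthase CESA9, LOC_Os09g25490, had 37.2 ± 16.8 CPM in tips and 175 ± 191 CPM in mature root (edgeR adjusted p = 0.0129), a call lost without replicate 2 of day 2 mature root (0.0628) or replicate 1 of day 6 (0.111). LOC_Os01g02000, a phosphate transporter, had 1.67 ± 2.49 and 9.19 ± 5.64 CPM in tip and mature root (edgeR adjusted p = 0.014), lost without replicate 1 of day 2 mature root (0.0562) or replicate 2 of day 6 (0.0668). The CCT/B-box zinc finger gene LOC_Os03g50310 had 3 counts in tips, against 117 in mature root, which stood 36.5 times above tips (interval 12.2 to 179). The intervals given here do not cover the spread between replicates. This gene and the chalcone synthase passed the filter on low counts through mature root alone. The tip counts of the phosphate transporter LOC_Os01g02000 (at most 5.86 CPM) and of the cyclin LOC_Os05g25950 (at most 2.74 CPM) would not have passed it either. Rows of this pattern could hardly be called higher in tips. LOC_Os05g25950, the cyclin with the smallest p in the direction with more calls, had 1.04 ± 1.15 CPM in tips and 51.5 ± 90.9 CPM in mature root (edgeR adjusted p = 0.0156), lost without replicate 2 of day 2 mature root (0.346) or replicate 2 of day 6 (0.0544).

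Beside other transcription factor families, the MYB rows had 17 of 119 lower and 4 higher in tips (14.3% and 3.36%). Basic helix-loop-helix rows, the family of MYB partners, had 8 of 62 lower and 2 higher (12.9% and 3.23%). WRKY rows had 16 of 61 lower and 0 higher (26.2% and 0%), and NAC rows 16 of 54 lower and 0 higher (29.6% and 0%). Of all tested rows 9.02% were lower and 3.18% higher. The median log2 fold changes were -0.30 for MYB, -0.28 for basic helix-loop-helix, -1.27 for WRKY and -1.17 for NAC rows. Differences between families were not tested. The helix-loop-helix row of smallest p, LOC_Os01g11910, had 16.1 ± 7.26 CPM in tips and 79.2 ± 26.4 CPM in mature root (n = 6 and 4, SD; edgeR adjusted p = 0.00979), and lost its call without replicate 2 of day 2 mature root (0.0527).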

How the data were processed

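Polyadenylated RNA of 10 rice root libraries was sequenced after preparation from about 2 µg of total RNA, with gel selection near 200 bp and 18 cycles of PCR, per the labels' protocols. The authors deposited whole-number counts per row without normalization, for all libraries in 1 table, per the file headers. The table also gives other values for each row, the number of exons and the summed exon length, as deposited. Tools named in the submitters' processing notes are Bowtie, SAMtools 0.1.12a, TopHat 1.3.1 and Cufflinks 1.0.3. Neither the genome build nor the counting tool, the strand setting or the meaning of the -ext ending is stated in the labels or headers used here. Reads of overlapping, antisense or near-identical genes therefore cannot be told apart. No molecular identifiers are mentioned, so intervals and floors cover counting error only. No coordinates or sequences were used.

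The analysis used edgeR 4.0.16 and limma 3.58.1 under R 4.3.3. The filter filterByExpr over the 4 groups (minimum count 10, minimum total 15) left 19234 rows. Scaling was by TMM, the model had 1 mean per group over all 10 libraries, and the quasi-likelihood F test was adjusted by Benjamini-Hochberg over all tested rows, with calls at 0.05. The SE given is the size of the log2 fold change over the square root of the F statistic, and was not estimated separately. The steps were tested on simulated data. P-values measure the spread between pools of plants, given in the labels as independent biological samples. The members and lists were chosen with earlier results of these data known. Named members were up to 12 of smallest p per direction among those called between tissues, the 5 of highest mean CPM, the 3 of smallest p per direction for time in each tissue, the 4 for the difference between days, up to 8 with a specific name and the leading gene of each pathway list. The cyclin pattern was narrowed after the rows were seen, since it also matched tetracycline transporters and recycling factors. DESeq2 1.42.0 and other scalings, filters and fits were the alternatives.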

Additional observations from a re-analysis of the deposited data

Results flagged for a closer look

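A group of 3 members moved in opposite directions between days in the tissues without overlap between the days in either, which was found in 2.52% of the tested members and 2.21% of all tested rows. The value given is the difference of the tissue log2 fold change, day 6 minus day 2, and none of the differences passed edgeR's test (adjusted p = 0.513, 0.513 and 0.517). LOC_Os06g40330, at -2.26 (SE 0.88), had 8.47, 4.3 and 7.18 CPM in tips on day 6 and 13.5, 16.9 and 11.2 CPM on day 2, against 12.1 and 22.4 CPM in mature root on day 6 and 7.3 and 7.74 CPM on day 2. It was also the 1 member whose tip libraries all lay below mature root on day 6 and all above it on day 2, a pattern of 1.53% of all tested rows. LOC_Os08g33750-ext, at -2.4 (SE 0.81), was slightly lower on day 6 in tips and higher on day 6 in mature root. LOC_Os04g42950, at -3.17 (SE 1.4), had 0, 1.17 and 0.898 CPM in tips on day 6 and 3.59, 2.93 and 2.14 CPM on day 2, and 8.93 and 8.9 CPM in mature root on day 6 and 1.27 and 5.81 CPM on day 2. Its tip values stood for only a few counts each, so their lack of overlap is weak. Single outlying libraries were not tested for, since the groups held 3 or 2 libraries.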

How the results depend on the processing

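With DESeq2 size factors, library totals as scaling, a filter of 5 CPM in 2 libraries or robust dispersion, the number of members called stayed within 1.5 times in all 6 comparisons. It did so too with all libraries thinned to the lowest total, which was added after seeing the data. There 13 members were lower and 4 higher in tips over both days (13% and 4%, against 8.1% and 3.06% of all tested rows). Without the filter on low counts 7 members were higher and 30 lower in tips over both days, 17 were called on day 2 and 23 on day 6 (8.63% and 11.7%, against 5.18% and 8.9% of all rows), 6 for time in tips (3.05%, against 2.99%), 4 for time in mature root (2.03%, against 2.2%) and 1 for the difference between days (0.508%, against 1.65%), and the median was -0.55. This fit tests 78 more members. The DESeq2 test called 22 members lower and 4 higher in tips over both days (18.5% and 3.36%, against 12.2% and 6.31% of all tested rows). It called 11 members on day 2 and 21 on day 6 (9.24% and 17.6%, against 5.38% and 14.3%). For time it called 1 in tips and 3 in mature root (0.84% and 2.52%, against 0.676% and 1.95%). A fit of only the compared groups called 0 on day 2 and 3 on day 6 (0% and 2.65%, against 0.0237% and 3.33% of all tested rows). It could not be made for the contrast over both days or the difference between days. With the replicate number as a block 2 members were higher and 12 lower over both days (1.68% and 10.1%, against 1.43% and 5.15% of all tested rows). In this fit 2 were called on day 2 and 7 on day 6 (1.68% and 5.88%, against 0.702% and 3.01%). The numbers did not pair the libraries: deviations of same-numbered libraries correlated at -0.0447 to 0.023. Under the block LOC_Os05g40960, LOC_Os08g33750-ext, LOC_Os09g26170, LOC_Os09g01960, LOC_Os01g09640, LOC_Os06g24070, LOC_Os06g35140, LOC_Os02g09480, LOC_Os09g25490 and LOC_Os01g02000 were not called (adjusted p = 0.0506 to 0.0998). With each library left out in turn, the higher calls ranged from 0 to 5, the lower from 7 to 20, day 2 from 0 to 4 and day 6 from 1 to 11, time and the difference between days gave 0, and the median lay between -0.39 and -0.19. The cause of these shifts was not tested. Directions turned for uncalled members. With 1 library left out, LOC_Os02g14490 for time in tips ranged from -2.97 to 0.24. Between the tissues LOC_Os06g43090-ext ranged from -0.24 to 0.65, LOC_Os12g41920 from -0.50 to 0.91, LOC_Os01g51154 from -0.16 to 0.81 and LOC_Os07g44090-ext from -0.027 to 0.73. LOC_Os01g51154 was -0.30 with the replicate block. Low depth limits the 78 untested members.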

Other observations

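Several members had most of their reads in a single library. In 9 of the 119 tested members (7.56%, against 8.94% of all tested rows) the highest library held more than 50% of the CPM summed over the 10 libraries. The most extreme was LOC_Os03g13790, a myb/SANT domain row, with 1150 CPM in root tip day 6 replicate 1, 36.4 times the next library, and 19.8 to 31.5 CPM in the other libraries of both tissues. In mature root day 6 replicate 1, LOC_Os06g40710 had 173 CPM, 11.5 times the next library, and LOC_Os01g65370, LOC_Os01g52410, LOC_Os02g04640 and LOC_Os09g23620 also had their highest value there.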
